A study of Bos grunniens with 18 samples.

Results

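The genes described here take iron into cells, move it out of endosomes and phagosomes, store it, release it and sense it. They were a list of 10 genes (*TFRC*, *STEAP3*, *SLC11A2*, *SLC11A1*, *NCOA4*, *FTH1*, *SLC40A1*, *HMOX1*, *IREB2* and *ACO1*), chosen with earlier results of these data known. A member was any row of the deposited gene table that carried one of these names. Of the 20607 genes in that table, 9 were members, because no row was named *FTH1*. The blood was whole blood of adult female yaks (*Bos grunniens*) aged 4 to 8 years, drawn into EDTA tubes, lysed in TRIzol LS and sequenced as poly(A)-selected RNA, with 6 libraries from each of 3 stages, abbreviated as Y-A for anestrus, Y-E for estrus, and Y-P for pregnancy. According to the methods, the animals were synchronised with a progesterone pessary, PGF2α and GnRH, inseminated at the estrus that followed, and blood of 6 cows was tracked through the stages. The day of pregnancy at sampling and the place of the Y-A sample relative to the hormone programme were not given in the sources used here, and the stages followed each other in time, so stage and time of sampling cannot be told apart. Labels do not say that the 6 libraries of a stage are separate cows, and p-values measure the spread between these libraries.

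Most of the iron in an animal circulates in the hemoglobin of red cells. Transferrin carries iron to cells, and the transferrin receptor is made in large amounts by red cell precursors, which need iron for heme. Macrophages and monocytes recover iron from old red cells by breaking down heme, hold it in ferritin, and return it to plasma through ferroportin, the only known iron exporter of animal cells. The iron regulatory proteins bind stem-loops in the mRNAs of several of these genes and set how much protein is made, which for some of the genes RNA levels need not show.

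Library depth was 30247267 to 48401076 counts, and 3 counts, the upper limit that a count of 0 allows, stood for 0.0620 to 0.0992 CPM (counts scaled to a common library size by the TMM method). Such limits cover counting error only. Libraries of a stage were unlike in their red cell RNA. Of all counts, 3.10% to 16.7% came from hemoglobin genes in Y-A, and 0.0272% to 0.376% in Y-P. In Y-E it was 0.0899% to 0.713% in 5 libraries and 8.36% in replicate 6, a library that the study's supplementary tables leave out. The summed level of 12 red cell precursor markers in the table (of 22 listed, with *ALAS2* and *GATA1* the most abundant) was 500 to 11040 CPM in Y-A, 173 to 4709 CPM in Y-E and 97.1 to 190 CPM in Y-P. The highest value of Y-A and of Y-E belonged in each case to the library numbered 6, and no marker was at the detection floor in all libraries. Results are therefore given for all 18 libraries, and also without Y-E replicate 6 or for the 15 libraries numbered 1 to 5 wherever that changes them. In whole blood, fewer cells of a type and less RNA per cell cannot be told apart.

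Per unit of transcript length, *SLC40A1* was the most abundant member and *SLC11A2* the least. Median FPKM (as deposited, fragments scaled to transcript length and library size) in Y-A was 100.5 for *SLC40A1*, 76.2 for *NCOA4*, 53.0 for *SLC11A1*, 27.0 for *IREB2*, 24.6 for *HMOX1*, 6.24 for *ACO1*, 5.51 for *TFRC*, 1.61 for *STEAP3* and 0 for *SLC11A2*. The order in Y-P was the same except that *TFRC* (7.34 FPKM) stood above *ACO1* (6.36 FPKM). In Y-E the order was that of Y-A except that *HMOX1* (30.5 FPKM) stood above *IREB2* (28.5 FPKM). The ranges of *IREB2* and *HMOX1* overlapped in every stage, as did those of *TFRC* and *ACO1*, so these neighbours did not differ beyond their spread. *NCOA4* overlapped with *SLC40A1* and with *SLC11A1* in Y-A only through replicate 6. In the Y-A libraries numbered 1 to 5, *SLC40A1* lay at 85.0 to 126 FPKM, *NCOA4* at 63.1 to 81.0 FPKM and *SLC11A1* at 34.5 to 56.9 FPKM, with no overlap. In Y-E without replicate 6, *NCOA4* (61.9 to 81.6 FPKM) lay below *SLC40A1* (103 to 144 FPKM) and still overlapped with *SLC11A1*.

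**Figure D1:**
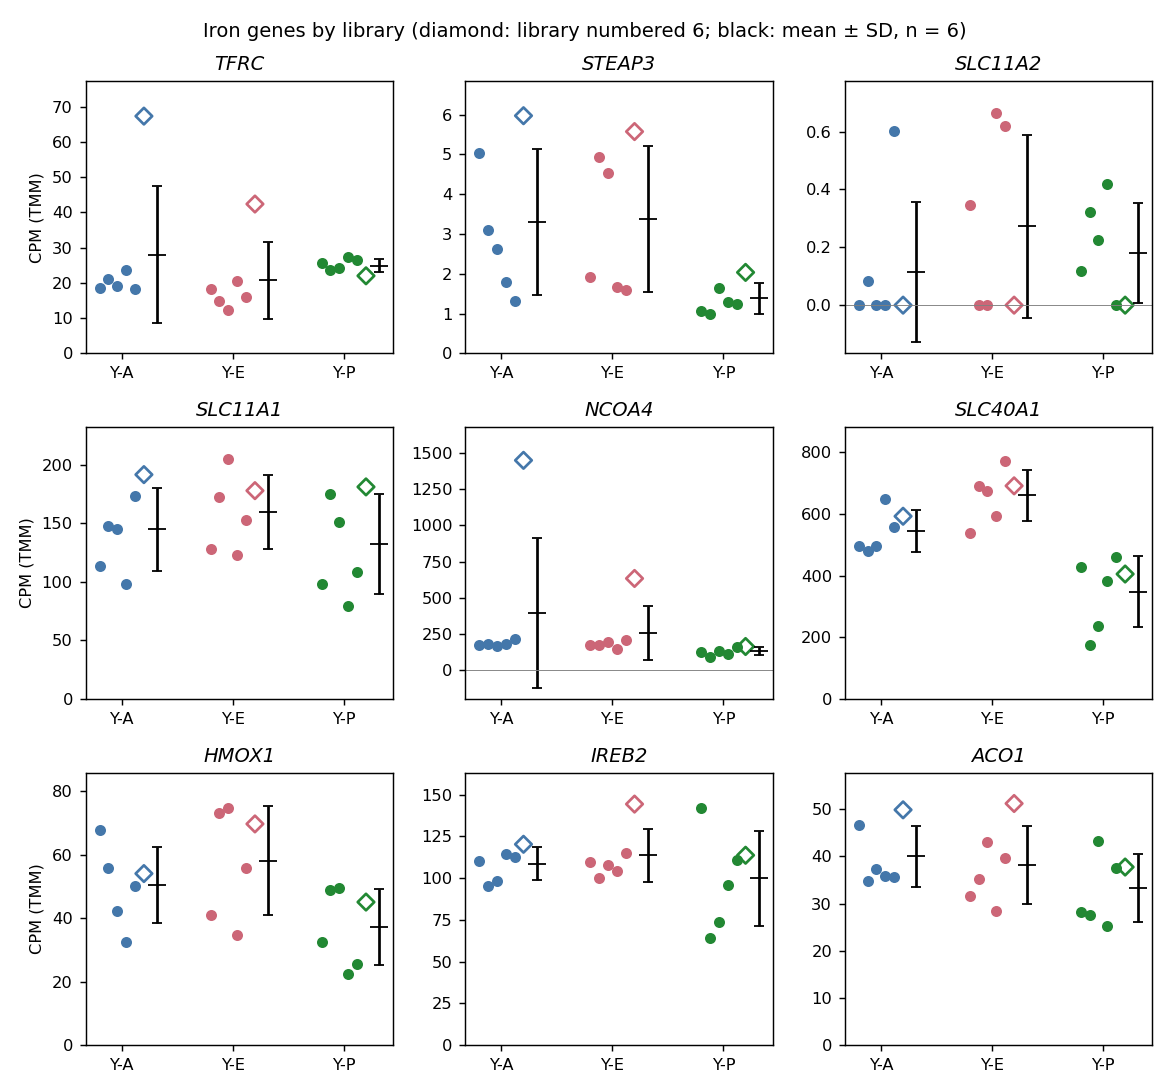
Level of the 9 members in each of the 18 libraries, in TMM-scaled CPM on linear axes, by stage. Filled circles are libraries numbered 1 to 5, open diamonds are those numbered 6, and black bars are the mean ± SD of 6 libraries. *SLC40A1* in Y-P (175 to 459 CPM) lies below all Y-A and Y-E libraries, and the diamonds of *NCOA4* and *TFRC* stand far from the other libraries in Y-A and Y-E, while in Y-P they lie near them.

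In pregnancy against estrus (Y-P against Y-E), *SLC40A1* and *STEAP3* fell, and these were 2 of 9 members with an adjusted p under 0.05 (edgeR quasi-likelihood test, Benjamini-Hochberg over all 14508 genes tested). The background was 14.4% of all genes tested, 8.68% in the lower direction. For Y-P against Y-A 1 of 9 members, *SLC40A1*, fell, where the background was 5.83%, and 3.61% in the lower direction. For Y-E against Y-A 0 of 9 members passed, and the background was 0.0207%. At an unadjusted p under 0.05 there were 0 members, beside 6.2% of all genes. Without Y-E replicate 6 there were 2 (8.43%), and in the 15 libraries numbered 1 to 5 there was 1 (6.71%). In DESeq2 0 of the 6 members that had an adjusted p passed. With counts this small, the members' share cannot be read as differing from the background. With library size alone as the scaling, the balance of calls over all genes turned. It was 7.41% higher and 1.78% lower for Y-P against Y-A, and 12.4% higher and 5.22% lower for Y-P against Y-E. The members passing were then 0 for Y-P against Y-A and 2 for Y-P against Y-E, *SLC40A1* and *STEAP3*, which still fell. Without Y-E replicate 6 the counts were 0 for Y-P against Y-A and 1 for Y-P against Y-E (background 6.06% and 13.7%). With the replicate number as a block they were 3 and 3 (8.84% and 18%), and in the 15 libraries numbered 1 to 5 they were 1 and 3 (3.66% and 13.0%). Only *STEAP3* for Y-P against Y-E also changed by at least 2-fold, as did 2.67% of all genes.

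Over the 8 members other than the barely detected *SLC11A2*, the median log2 fold change was 0.047 for Y-E against Y-A, −0.35 for Y-P against Y-A and −0.46 for Y-P against Y-E, and values for the 3 comparisons are given in this order throughout. The medians of all genes tested were −0.0091, 0.031 and 0.042. For Y-P against Y-A the fitted values of 8 of the 8 lay below 0 with TMM scaling, but 5 of 8 did with library size alone, a scaling that moved the median of all genes to 0.19. With TMM scaling and the replicate number as a block, or in the libraries numbered 1 to 5, 7 of 8 did, and *TFRC* lay above 0. For Y-P against Y-E 7 of the 8 lay below 0 under both scalings, and library size alone moved the median of all genes to 0.18. The comparisons share their groups and are not independent of each other.

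**Figure D2:**
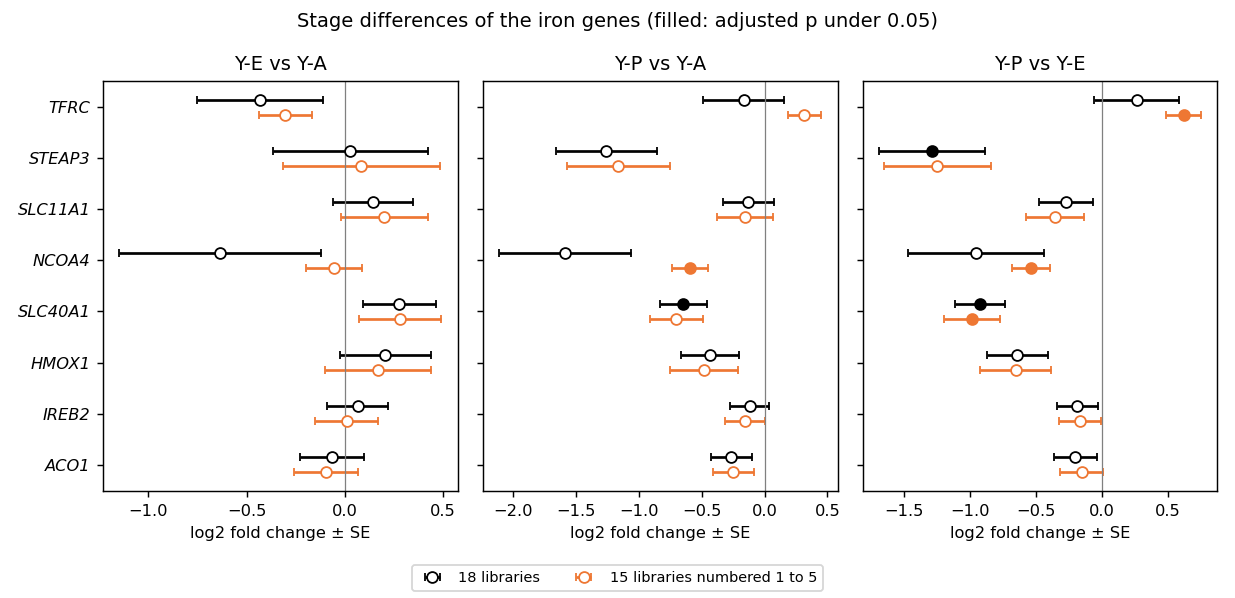
Log2 fold changes ± SE of 8 members (*SLC11A2* is left out because of its low counts) in the 3 comparisons, from the fit of all 18 libraries (black) and of the 15 libraries numbered 1 to 5 (orange). Filled points have an adjusted p under 0.05. *SLC40A1* for Y-P against Y-E is filled in both fits, at −0.92 and −0.98, whereas *NCOA4* and *TFRC* are filled only without the libraries numbered 6.

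Among genes of iron release, 1 passed in both comparisons with pregnancy. *SLC40A1* (*ENSBGRG00000003645*, chromosome 2, 142735016 to 142765802, minus strand) encodes ferroportin. Its lowest, median and highest levels were 479, 528 and 649 CPM in Y-A (mean 545 ± 66.8, SD, n = 6), 539, 683 and 773 CPM in Y-E (661 ± 82.6) and 175, 394 and 459 CPM in Y-P (348 ± 115). In CPM, every Y-P library lay below every Y-A and every Y-E library, while the Y-A and Y-E ranges overlapped. Such non-overlap of CPM in the lower direction was found for 2.32% of all genes for Y-P against Y-A and for 3.84% for Y-P against Y-E. In FPKM, Y-P (35.1 to 100.2 FPKM) lay below Y-E (103 to 144 FPKM) but overlapped with Y-A (85.0 to 126 FPKM). The lowest Y-P libraries were replicates 2 and 3, at 175 and 236 CPM, and the other 4 lay between 382 and 459 CPM.

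The log2 fold change of *SLC40A1* was −0.92 ± 0.19 (SE) for Y-P against Y-E, a 1.9-fold lower level (edgeR, adjusted p = 0.0034). It passed in each of 31 alternative analyses, among them the fit without Y-E replicate 6 (−0.91, adjusted p = 0.0063). For Y-P against Y-A it was −0.65 ± 0.19, or 1.57-fold lower (adjusted p = 0.0458). That call was lost without Y-E replicate 6 (−0.65, adjusted p = 0.0505) and in the 15 libraries numbered 1 to 5 (−0.70, adjusted p = 0.0722). It was also lost when any one of Y-A replicates 2 to 6, Y-E replicates 2 to 5 or Y-P replicates 2 to 4 was left out, at adjusted p of at most 0.0885. Pairing libraries by their number kept the call in all 18 libraries (−0.69, adjusted p = 0.0292). It also restored the call without Y-E replicate 6 (−0.69, adjusted p = 0.0392). The Y-E over Y-A difference was 0.28 ± 0.19 and did not pass (adjusted p = 0.951).

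Summed levels of blood cell markers are given beside *SLC40A1* without a test. For neutrophils, 10 of 14 listed markers were in the table (*CSF3R* and *S100A12* the most abundant), and their sum was 3698 to 9335 CPM in Y-A, 4753 to 12575 CPM in Y-E and 2700 to 5987 CPM in Y-P. For 5 of 9 platelet markers (*TUBB1*, *ITGA2B*) the ranges were 266 to 357, 230 to 376 and 142 to 199 CPM, with Y-P below both other stages. For 10 of 12 monocyte markers (*CSF1R*, *FCN1*) they were 1015 to 1883, 917 to 2166 and 631 to 1587 CPM, which overlap. For T cells (7 of 11 markers, *CD3D* and *CD4* the most abundant) the highest sums were those of pregnancy, with 1038 to 1255, 1072 to 1298 and 1227 to 2005 CPM. For B cells (7 of 8 markers) the ranges were 504 to 1683, 419 to 1389 and 584 to 1884 CPM, and for eosinophils and basophils (5 of 9 markers) 143 to 384, 190 to 378 and 135 to 304 CPM. The part of these cells in the levels of *SLC40A1* was not tested. Over the 17 libraries without Y-E replicate 6, the genes whose log2 CPM followed *SLC40A1* most closely were *IFNAR1* (Pearson's r = 0.960), *FAM135A* (0.956) and *FGD4* (0.956), and over all 18 libraries r was 0.953 to 0.958. These are descriptions over libraries that share stage, depth and cell make-up.

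*HMOX1* (*ENSBGRG00000011979*, chromosome 5, 30664182 to 30672212, minus strand) encodes heme oxygenase 1, which opens the heme ring and sets its iron free. It measured 32.6, 52.1 and 67.7 CPM in Y-A (lowest, median and highest, mean 50.4 ± 12), 34.5, 62.7 and 74.9 CPM in Y-E (58.2 ± 17.3) and 22.5, 38.7 and 49.5 CPM in Y-P (37.3 ± 12). The ranges of all stages overlapped. For Y-P against Y-E the log2 fold change of −0.64 ± 0.23 did not pass (edgeR, adjusted p = 0.0717). With the replicate number as a block it did (−0.65, adjusted p = 0.0139), also when Y-E replicate 6 was left out. It passed too without Y-E replicate 4 (−0.75, adjusted p = 0.0318) and in DESeq2 (adjusted p = 0.0386). The Y-P over Y-A value was −0.44 ± 0.23 (adjusted p = 0.278) and the Y-E over Y-A value 0.21 ± 0.23 (adjusted p = 0.999). The closest genes over 17 libraries were *ACVRL1* (r = 0.914), *SLC16A5* (0.888) and *AVPI1* (0.881).

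Uptake of transferrin-bound iron needs *TFRC*, the transferrin receptor (*ENSBGRG00000017868*, chromosome 1, 76662318 to 76830614, minus strand). The annotated rows of *UBXN7* and *ZDHHC19* overlap it on the same strand, so reads could be shared between them. *TFRC* measured 18.3, 20.0 and 67.3 CPM in Y-A (lowest, median and highest, mean 28.0 ± 19.4), 12.4, 17.2 and 42.4 CPM in Y-E (20.7 ± 11.0) and 22, 25.0 and 27.3 CPM in Y-P (24.9 ± 1.95). The highest value of Y-A and of Y-E was replicate 6, whereas in Y-P replicate 6 was the lowest library. Over all 18 libraries none of the differences passed (edgeR, log2 fold change −0.43 ± 0.32, −0.17 ± 0.32 and 0.26 ± 0.32 in the order above, adjusted p = 0.989, 0.804 and 0.637).

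The libraries numbered 1 to 5 ordered *TFRC* differently. There it measured 18.3 to 23.6 CPM in Y-A (mean 20.1 ± 2.24, n = 5), 12.4 to 20.4 CPM in Y-E (16.4 ± 3.09) and 23.7 to 27.3 CPM in Y-P (25.5 ± 1.48), so that every Y-P library lay above every Y-A and Y-E library. Non-overlap in the higher direction held in these 15 libraries for 2.13% of all genes against Y-A and 3.49% against Y-E. The Y-P over Y-E value of 0.62 ± 0.14 passed in this fit (edgeR, adjusted p = 0.0081), and the Y-P over Y-A value of 0.32 ± 0.13 did not (adjusted p = 0.192). Without Y-E replicate 6 alone, the Y-P over Y-E value was 0.60 ± 0.29 (adjusted p = 0.176). Leaving out the libraries numbered 6 was a choice made after their values were seen.

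*STEAP3* (*ENSBGRG00000003034*, chromosome 2, 72034866 to 72085848, minus strand) encodes the endosomal reductase that turns ferric into ferrous iron after transferrin has been taken in. Its levels were low, with 1.32, 2.86 and 5.97 CPM in Y-A (lowest, median and highest, mean 3.31 ± 1.84), 1.60, 3.23 and 5.58 CPM in Y-E (3.37 ± 1.83) and 0.990, 1.27 and 2.03 CPM in Y-P (1.38 ± 0.395). In Y-E the libraries fell into 3 near 1.60 to 1.93 CPM and 3 from 4.53 to 5.58 CPM, and all stages overlapped. The Y-P over Y-E value was −1.29 ± 0.40, a 2.44-fold lower level (edgeR, adjusted p = 0.0374). The call was lost without Y-E replicate 6 (−1.08, adjusted p = 0.0841), without Y-E replicate 2 or 3, without any one of Y-P replicates 1 to 5 (adjusted p of at most 0.0888 in all of these), and in the libraries numbered 1 to 5 (−1.25, adjusted p = 0.0533). For Y-P against Y-A the value of −1.26 ± 0.40 did not pass (adjusted p = 0.0667), but did with the replicate block (−1.12, adjusted p = 0.0469) and in DESeq2 (adjusted p = 0.0233). With the block and without Y-E replicate 6 it did not pass against Y-A (adjusted p = 0.0633) or Y-E (adjusted p = 0.0520). The Y-E over Y-A value was 0.028 ± 0.39 (adjusted p = 0.999).

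*SLC11A2* (*ENSBGRG00000004038*, chromosome 5, 78691240 to 78707694, minus strand) encodes DMT1, which carries ferrous iron out of endosomes and into gut cells. It was barely detected. The Y-A replicates 1 to 6 held 0, 3, 0, 0, 20 and 0 counts, the Y-E replicates 11, 0, 0, 24, 21 and 0 counts, and the Y-P replicates 4, 14, 10, 16, 0 and 0 counts. No difference passed (edgeR, adjusted p of at least 0.816), and the direction of fitted values is not read at counts this low. At this depth a difference between stages was not detectable.

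The related transporter *SLC11A1* (*ENSBGRG00000001439*, chromosome 2, 33279619 to 33290646, minus strand) encodes NRAMP1, which moves metal ions across the phagosome membrane of macrophages and neutrophils. It measured 98.2, 146 and 191 CPM in Y-A (lowest, median and highest, mean 145 ± 35.1), 123, 162 and 205 CPM in Y-E (160 ± 31.4) and 79.7, 130 and 181 CPM in Y-P (132 ± 42.5). The ranges overlapped almost entirely, and no difference passed (edgeR, log2 fold change 0.14 ± 0.20, −0.13 ± 0.20 and −0.27 ± 0.20 in the 3 comparisons, in the order above, adjusted p = 0.999, 0.761 and 0.413). Among the genes closest to it over 17 libraries were *CD163*, a hemoglobin scavenger receptor of macrophages (r = 0.795), and *CFP*, properdin of the complement system (r = 0.788), after the unnamed *ENSBGRG00000026142* (r = 0.838).

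Storage was represented by *NCOA4* (*ENSBGRG00000012715*, chromosome 27, 45959612 to 45966170, minus strand), the receptor that delivers ferritin to autophagosomes so that its iron is freed. It measured 166, 185 and 1448 CPM in Y-A (lowest, median and highest, mean 396 ± 516), 144, 185 and 633 CPM in Y-E (255 ± 187) and 89.8, 130 and 164 CPM in Y-P (131 ± 28.4). Replicate 6 was the highest library of each stage, at 7.85 times the median of the other 5 in Y-A, 3.66 times in Y-E and 1.31 times in Y-P. In CPM over all 18 libraries, every Y-P library lay below every Y-A library, as was found for 2.32% of all genes. This therefore also held without the libraries numbered 6. In FPKM, Y-A (63.1 to 558 FPKM) and Y-P (37.5 to 77.7 FPKM) overlapped, also in the libraries numbered 1 to 5. Y-P and Y-E overlapped.

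Over all 18 libraries the *NCOA4* log2 fold change was −0.63 ± 0.51 for Y-E against Y-A (edgeR, adjusted p = 0.999), −1.59 ± 0.52 for Y-P against Y-A (adjusted p = 0.0747) and −0.96 ± 0.52 for Y-P against Y-E (adjusted p = 0.232). None passed. In the libraries numbered 1 to 5 the means were 185 ± 17.4 CPM in Y-A, 179 ± 25.3 CPM in Y-E and 125 ± 26.2 CPM in Y-P (n = 5), and the fall in Y-P was smaller and passed in both comparisons. It was −0.59 ± 0.14 against Y-A (adjusted p = 0.0318) and −0.54 ± 0.14 against Y-E (adjusted p = 0.0216). With the replicate block over 18 libraries the Y-P over Y-A value was −0.98 (adjusted p = 0.0380), and with the block but without Y-E replicate 6 it did not pass (−0.96, adjusted p = 0.0537). Without Y-A replicate 6 alone the values were −0.53 against Y-A (adjusted p = 0.325), −0.96 against Y-E (adjusted p = 0.0294) and, for Y-E against Y-A, 0.43 (adjusted p = 0.933). Without Y-E replicate 6 alone they were −1.59 (adjusted p = 0.0505), −0.45 (adjusted p = 0.596) and −1.14 (adjusted p = 0.517).

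Ferritin itself could be followed only through rows without a gene name. By their KEGG orthology entry, 4 rows were ferritin heavy chain, the protein of *FTH1*, and 9 were ferritin light chain. Rows that share an entry may share reads, their sequences were not compared here, and the division of reads between them is uncertain. Of the heavy chain rows, *ENSBGRG00000005629* (chromosome 6, 128454082 to 128454795, plus strand) was the most abundant, with 508, 713 and 2773 CPM in Y-A (lowest, median and highest, mean 1053 ± 869), 538, 677 and 1806 CPM in Y-E (835 ± 484) and 362, 631 and 858 CPM in Y-P (607 ± 200). *ENSBGRG00000007156* (chromosome 13, 48072920 to 48074222) ranged from 78.4 to 597 CPM and *ENSBGRG00000022376* (chromosome X, 63113358 to 63113738) from 185 to 1356 CPM. *ENSBGRG00000025713* (chromosome 27, 15264942 to 15265803) lay between 0 and 2.88 CPM and was not tested. Replicate 6 was again the highest library of Y-A and of Y-E in these 3 tested rows, at 4.88 to 6.06 and 2.91 to 3.85 times the median of the other 5, but not in Y-P, at 0.811 to 1.04 times. None of the 12 tested ferritin rows passed in any comparison over all 18 libraries without the replicate block (edgeR). At an unadjusted p under 0.05 they were 0, 4 and 0, beside 6.2%, 22.7% and 29.3% of all genes. No call on *FTH1* itself can be made from these rows.

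Of the light chain rows, the most abundant carried the name *BAX* (*ENSBGRG00000018680*, chromosome 20, 59640224 to 59652014, minus strand). It held the KEGG entries of both ferritin light chain and the apoptosis gene *BAX*, whose RefSeq neighbour in yak is *FTL*, so its reads cannot be assigned to either. It measured 639 to 953 CPM in Y-A (mean 810 ± 136), 519 to 823 CPM in Y-E (670 ± 102) and 318 to 833 CPM in Y-P (518 ± 193). The Y-P over Y-A value of −0.64 ± 0.20 did not pass (edgeR, adjusted p = 0.0590), and with the replicate block it did (−0.70, adjusted p = 0.0420). With that block *ENSBGRG00000011248* (chromosome 14, 30936150 to 30936828, plus strand, an annotated lncRNA that overlaps a pseudogene on the other strand) also passed, at −1.0 (adjusted p = 0.0393) against −0.84 without it (adjusted p = 0.0971). Without Y-E replicate 6 neither passed with the block (adjusted p = 0.0520 and 0.0519). The other 7 light chain rows had stage means of at most 10.2 CPM.

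Several red cell genes were high in the libraries numbered 6. *SLC4A1*, the anion exchanger of the red cell membrane, was at 426 CPM in Y-A replicate 6 and 161 CPM in Y-E replicate 6, against 27.5 CPM in Y-A replicate 1, the library with the next highest hemoglobin share in Y-A (12.1%). *RHAG*, the Rh-associated glycoprotein of the same membrane, was at 54.2, 17.7 and 1.01 CPM in these libraries, and *ALAS2*, the enzyme that starts heme synthesis in red cell precursors, at 9946, 4261 and 1855 CPM. *NCOA4* in Y-A replicate 1 was 177 CPM and *TFRC* 18.6 CPM, within the range of the other Y-A libraries numbered 1 to 5. Other precursor markers were as high in Y-A replicate 1 as in Y-E replicate 6, with *KLF1* at 23.1 and 22.5 CPM and *GATA1* at 84.5 and 66.0 CPM. The part of red cell precursors in these levels was not tested.

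**Figure D3:**
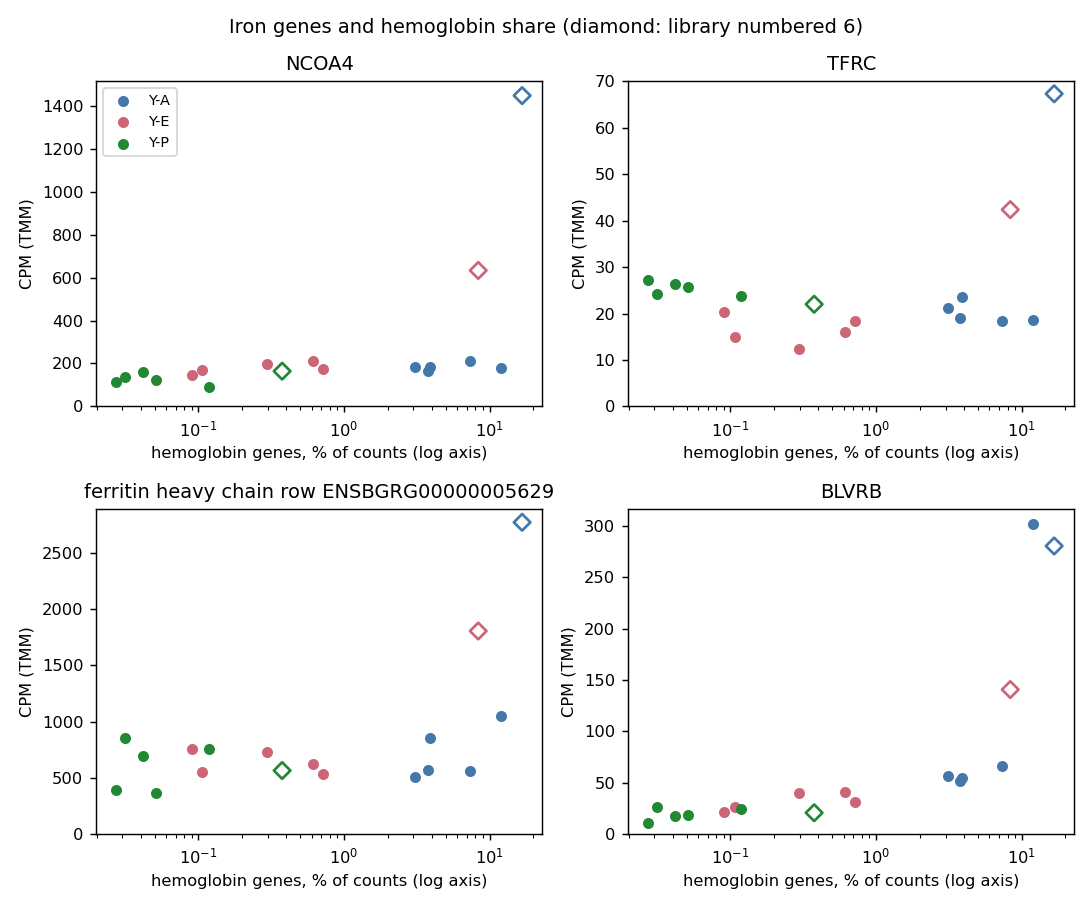
*NCOA4*, *TFRC*, the ferritin heavy chain row *ENSBGRG00000005629* and *BLVRB* (TMM-scaled CPM, linear y axes) against the share of counts from hemoglobin genes (percent, log x axis) in the 18 libraries. Colours are stages and open diamonds are the libraries numbered 6. Y-A replicate 1, at 12.1% hemoglobin, is among the highest for *BLVRB* (302 CPM) but not for *NCOA4* (177 CPM) or *TFRC* (18.6 CPM).

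The genes most like *NCOA4* and *TFRC* followed the same libraries. For *NCOA4* they were *XPO7* (r = 0.958 over 17 libraries), the ubiquitin-conjugating enzyme gene *UBE2B* (0.956) and *ENSBGRG00000015780* (0.955). Over the 16 libraries without Y-A replicate 6 and Y-E replicate 6, r was 0.679 to 0.797. For *TFRC* they were *ENSBGRG00000014979* (0.909), *FECH*, which inserts iron into heme (0.890), and *PRXL2A* (0.880), and over 16 libraries r was 0.597 to 0.751. Between *NCOA4* and the 3 heavy chain rows r was 0.818 to 0.850 over 18 libraries and 0.00496 to 0.146 over 16. Between *NCOA4* and *TFRC* it was 0.672 over 18 libraries and −0.632 over 16. For *STEAP3* the closest genes were *ENSBGRG00000001138* (0.918), *CMBL* (0.891) and *APLP2* (0.875), with r of 0.875 to 0.916 over 16 libraries.

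Iron sensing showed no difference between stages that passed. *IREB2* (*ENSBGRG00000018886*, chromosome 17, 32692005 to 32743884, plus strand) encodes iron regulatory protein 2, which is degraded when iron is plentiful. It measured 95.3, 112 and 120 CPM in Y-A (lowest, median and highest, mean 109 ± 9.81), 100.1, 109 and 144 CPM in Y-E (114 ± 15.9) and 63.9, 103 and 142 CPM in Y-P (99.9 ± 28.6). The Y-P libraries were the most spread and covered the whole Y-A range. The log2 fold changes were 0.065 ± 0.15, −0.12 ± 0.15 and −0.19 ± 0.15 in the 3 comparisons, in the order above (edgeR, adjusted p = 0.999, 0.698 and 0.466).

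*ACO1* (*ENSBGRG00000001264*, chromosome 7, 111424407 to 111504493, plus strand) encodes iron regulatory protein 1, which is an aconitase when it holds an iron-sulfur cluster and binds RNA when it does not. It measured 34.8, 36.5 and 49.9 CPM in Y-A (lowest, median and highest, mean 40.0 ± 6.53), 28.5, 37.4 and 51.2 CPM in Y-E (38.2 ± 8.27) and 25.3, 32.9 and 43.2 CPM in Y-P (33.3 ± 7.20). All stages overlapped, and the log2 fold changes of −0.065 ± 0.16, −0.27 ± 0.16 and −0.20 ± 0.16 did not pass (edgeR, adjusted p = 0.999, 0.345 and 0.447). *IREB2* followed *CSNK1G3* (r = 0.946), *WAPL* (0.941) and *EFR3A* (0.932) most closely over 17 libraries, and *ACO1* followed *OTUB2* (0.876), *CAPN2* (0.875) and *CYP27A1* (0.875). For *SLC11A2* the closest were *ENSBGRG00000001185* (0.853), *ZBTB37* (0.830) and *CCDC85A* (0.758), where many libraries were at 0 counts.

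Other genes of iron and heme handling were read from a list of 65, of which 51 were in the table and 44 were tested. For Y-E against Y-A 0 of 44 passed (edgeR), with 3 at an unadjusted p under 0.05, beside 6.2% of all genes. In DESeq2 0 of the 32 that had an adjusted p passed. For Y-P against Y-A 2 fell and 0 rose, beside 3.61% and 2.22% of all genes. For Y-P against Y-E 7 fell and 3 rose, beside 8.68% and 5.77%. This balance depended on the scaling, and so did that of all genes. With library size alone 3 rose and 2 fell against Y-A, beside 7.41% and 1.78% of all genes. Against Y-E 7 rose and 5 fell, beside 12.4% and 5.22%. In limma on log2(FPKM + 1), which is also another test, 7 rose and 1 fell against Y-A, and 9 rose and 4 fell against Y-E. The share of all genes in that fit is not reported here. The medians of the 44 were 0.02, 0.01 and 0.07. Without Y-E replicate 6 the counts passing in edgeR were 0, 3 and 6, beside 0.157%, 6.06% and 13.7% of all genes. With the replicate block they were 0, 5 and 11, beside 0.0965%, 8.84% and 18%.

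Among 10 tested genes of heme and hemoglobin handling, *BLVRB*, the biliverdin reductase of red cells, fell for Y-P against Y-A (edgeR, −2.78 ± 0.54, adjusted p = 0.0078). It measured 51.3 to 302 CPM in Y-A, 21.3 to 141 CPM in Y-E and 11.0 to 26.1 CPM in Y-P. No Y-P library reached a Y-A library, as was found in the lower direction for 2.32% of all genes. The summed red cell precursor markers given above also had their lowest median in Y-P, but *SELENBP1* and *GMPR* of that list did not. In the libraries numbered 1 to 5 their medians were 13.5 and 5.36 CPM in Y-P, 6.48 and 2.88 CPM in Y-A, and 6.06 and 1.86 CPM in Y-E. The part of red cell precursors in the level of *BLVRB* was not tested. For Y-P against Y-E 3 of the 10 fell, namely *BACH1*, a heme-sensing repressor of *HMOX1* (−0.83 ± 0.20, adjusted p = 0.0102), *NFE2L2*, the oxidative stress factor NRF2 (−0.56 ± 0.17, adjusted p = 0.0329), and *LRP1*, a receptor that takes up heme bound to hemopexin (−1.09 ± 0.29, adjusted p = 0.0167). *BACH1* measured 136 to 234 CPM in Y-E and 64.6 to 155 CPM in Y-P, and *LRP1* 252 to 616 CPM and 90.8 to 260 CPM, with overlap in both. *NFE2L2* did not pass without Y-E replicate 6 (adjusted p = 0.0553), or without any one of Y-E replicates 2 and 5 and Y-P replicates 2, 3 and 4.

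Among 10 tested genes of uptake and reduction, *LTF*, the iron-binding lactoferrin of neutrophil granules, fell in pregnancy against both other stages (edgeR, −2.61 ± 0.72 against Y-A, adjusted p = 0.0408, and −2.88 ± 0.73 against Y-E, adjusted p = 0.0136). The call against Y-A was lost in the libraries numbered 1 to 5 (adjusted p = 0.124), with the replicate block and without Y-E replicate 6 (adjusted p = 0.0679), and without any one of Y-A replicates 4 to 6 or Y-P replicates 2 to 6. It measured 1.95 to 22.6 CPM in Y-A, 1.07 to 32.6 CPM in Y-E and 0.742 to 4.38 CPM in Y-P. The summed neutrophil markers given above also had their lowest median there, and their part in the level of *LTF* was not tested. *TFR2*, the second transferrin receptor, fell for Y-P against Y-E from 3.05 ± 1.37 to 1.19 ± 0.533 CPM (−1.36 ± 0.40, adjusted p = 0.0284), and did not pass without Y-E replicate 6 (adjusted p = 0.0507), in the libraries numbered 1 to 5 (adjusted p = 0.0582), or without any one of Y-E replicate 3 and Y-P replicates 2, 3, 4 and 6. The other 8 did not pass in any comparison.

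Among 13 tested genes of mitochondrial iron and iron-sulfur clusters, 3 rose and 1 fell for Y-P against Y-E. *SLC25A37*, mitoferrin 1, which imports iron into mitochondria, fell from 203 ± 27.9 to 124 ± 15.5 CPM (edgeR, −0.71 ± 0.14, adjusted p = 0.0025). Its ranges of 166 to 233 and 95.5 to 139 CPM did not overlap, as was found in the lower direction for 3.84% of all genes. *ISCA2*, a late-acting iron-sulfur assembly factor, rose from 6.12 ± 0.833 to 9.24 ± 2.39 CPM (0.59 ± 0.17, adjusted p = 0.0270). That call was lost in the libraries numbered 1 to 5 (adjusted p = 0.106), with the replicate block and without Y-E replicate 6 (adjusted p = 0.0935), and without any one of Y-E replicates 2 and 5 and Y-P replicates 3, 5 and 6. Another 2 calls of this comparison lay beyond the 8 that the naming rule allowed and were chosen for naming after their values were seen. *GLRX5*, another iron-sulfur assembly factor, was at 0.59 ± 0.19 (adjusted p = 0.0422), and *CDC42BPA*, 1 of 5 tested sensing genes and targets, whose mRNA carries an iron-responsive stem-loop, was at −1.14 ± 0.38 (adjusted p = 0.0494). Both were lost without Y-E replicate 6 (adjusted p = 0.0816 and 0.101) and in the libraries numbered 1 to 5 (adjusted p = 0.152 and 0.0878), and in all *GLRX5* passed in 6 and *CDC42BPA* in 8 of 18 fits that left out 1 library. None of 2 tested storage chaperones and 4 tested genes of release and systemic control passed.

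**Figure D4:**
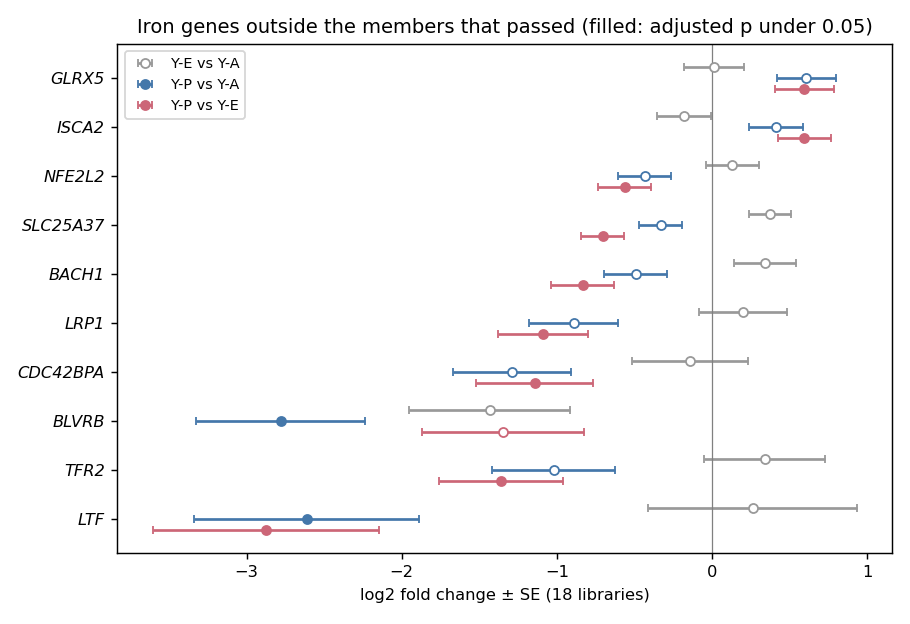
Log2 fold changes ± SE of 10 other iron genes that passed in a comparison, from the fit of all 18 libraries, for Y-E vs. Y-A (grey), Y-P vs. Y-A (blue) and Y-P vs. Y-E (red). Filled points have an adjusted p under 0.05. *GLRX5* and *ISCA2* lie above 0 for Y-P against Y-E, both at 0.59, and the other filled points lie below it.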

How the data were processed

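Whole-blood RNA of 18 yak libraries (6 each of Y-A, Y-E and Y-P, stage and number from the labels) was measured. Per the study's methods and processing notes, the authors trimmed reads with cutadapt 1.9, aligned them with HISAT2 2.2.1 to the *Bos grunniens* genome called v101, and assembled transcripts with StringTie 2.1.6. The deposited table holds whole-number counts and FPKM per gene. FPKM came from StringTie and ballgown, whereas the counting tool and its strand setting were not given in the sources used here. No column compared groups. Coordinates are those of the table, and sequences were not used here.

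Counts were scaled by TMM (factors 0.871 to 1.12), filtered with filterByExpr by stage (14508 genes kept) and tested over all 18 libraries with stage as the only term by edgeR 4.0.16's quasi-likelihood test (R 4.3.3), two-sided, with Benjamini-Hochberg adjustment over all genes tested. A gene passed at an adjusted p under 0.05. Pearson's r used log2 CPM with a prior count of 2. Members and gene lists were chosen with earlier results of these data known. The naming rule took all members, up to 8 other iron genes per comparison by adjusted p, and the 3 genes most like each member. Some results are not reported here.

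Alternatives were the replicate number as a block, other normalizations and filters, DESeq2 1.42.0, limma 3.58.1 on log2(FPKM + 1) and log2(FPKM + 0.1), fits of only the 2 stages compared, and leaving out each library in turn. Blood of 6 cows was tracked through the stages, and the number was taken as the cow, although the sources do not state it. Deviations of same-numbered libraries correlated at 0.110 to 0.515 between Y-E and Y-A (each of 6 best with its own number), −0.0492 to 0.369 between Y-P and Y-A (4 of 6) and −0.0544 to 0.400 between Y-P and Y-E (4 of 6). Scripts were tested on simulated data.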

Additional observations from a re-analysis of the deposited data

Results flagged for a closer look

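In a test of whether the highest or lowest of 6 libraries lies far from the others (Dixon's ratio above its critical value for 6), 12 of 39 groups of members and abundant ferritin rows had such a library. Chance gives about 1 in 20 groups, and genes that follow each other are not independent. Of the 12, 11 were libraries numbered 6.

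*TFRC* was at 67.3 CPM in Y-A replicate 6 and 42.4 CPM in Y-E replicate 6, and *NCOA4* at 1448 and 633 CPM in the same libraries. The ferritin heavy chain rows stood apart there too. *ENSBGRG00000005629* was at 2773 and 1806 CPM, *ENSBGRG00000007156* at 597 and 393 CPM, and *ENSBGRG00000022376* at 1356 and 902 CPM. *IREB2* was at 144 CPM in Y-E replicate 6. *SLC11A2* was at 0.602 CPM in Y-A replicate 5, which is 20 counts. In Y-P no library numbered 6 stood apart in these genes.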

How the results depend on the processing

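Of 834 refits of a member in a comparison (31 alternatives), 761 kept direction and side of the threshold, 34 lost a call, 11 gained one and 28 changed sign, none of these sign changes in a difference that passed. The cause was not tested. The Y-P against Y-A value of *TFRC* became 0.066 with the replicate block, 0.042 with the block in 17 libraries, 0.029 with library size alone, 0.18, 0.22 and 0.18 in the limma fits (pseudocount 1, pseudocount 0.1, all genes) and 0.32 in the libraries numbered 1 to 5. That of *SLC11A1* became 0.034, 0.045, 0.045 and 0.045, and that of *IREB2* 0.056, 0.038, 0.037 and 0.038, with library size alone and in the same limma fits. The fitted value of *SLC11A2* in Y-P against Y-E, from counts too low to read a direction, became 0.29 with the replicate block, in 18 and in 17 libraries. In Y-E against Y-A without Y-E replicate 6, *STEAP3* became −0.18 and *IREB2* −0.015. Leaving out each library gave, in Y-E against Y-A, −0.77 to 0.019 for *TFRC*, −0.18 to 0.27 for *STEAP3*, −1.14 to 0.43 for *NCOA4*, −0.015 to 0.10 for *IREB2* and −0.17 to 0.0071 for *ACO1*, and in Y-P against Y-A −0.27 to 0.28 for *TFRC*.

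Members passing in Y-P against Y-A were 1, but 3 with the replicate block, 2 in DESeq2 and 0 without Y-E replicate 6, with library size alone, with no low-count filter, in each limma fit and with only the 2 stages compared. Leaving out each library gave 0 to 1. In Y-P against Y-E they were 2, but 3 with the replicate block, in DESeq2 and in the libraries numbered 1 to 5, 1 without Y-E replicate 6, with no low-count filter and in each limma fit, and 1 to 3 when leaving out each library. The other iron genes passing in Y-P against Y-A were 2, but 5 with the replicate block, 4 with the block in 17 libraries, 5 with library size alone, 1 with no low-count filter, 5 in DESeq2, 8, 7 and 8 in the limma fits and 1 in the libraries numbered 1 to 5, an alternative added after seeing the data, as was TMM without red cell and hemoglobin counts. Leaving out each library gave 1 to 3. In Y-P against Y-E they were 10, but 6 without Y-E replicate 6 and in the libraries numbered 1 to 5, and 4 to 10 when leaving out each library. The pairing changed no other member's call than those given with the results.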
